A study of Mus musculus with 2 samples.

Results

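The cytosolic ribosomal protein genes encode the proteins of the ribosome that translates messenger RNA in the cytosol. On a mouse array they were represented by 61 genes of 19938 named genes. A gene was taken as a member where a probe set, the group of probes that measures a transcript, carried exactly 1 gene symbol and that symbol began with Rpl or Rps and a number, or was Rplp0, Rplp1, Rplp2 or Rpsa. Kinase genes of the Rps6k family and pseudogene symbols were left out. Where a gene had several such probe sets, the brightest gave its value. The choice used symbols and brightness, and not the difference between the samples.

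Plasmacytoid dendritic cells (pDCs), the dendritic cells specialised in making type I interferon, were sorted from bone marrow as CD11b-negative cells positive for BST2 and B220. Both marrow samples came from chimeric mice, whose haematopoietic cells derived from transplanted fetal liver, 2 months after reconstitution. In 1 sample the donor cells were Runx2-/-, that is, they lacked the transcription factor Runx2; in the other they were wild-type. The host mouse keeps its own non-blood cells in such a chimera, how many mice gave each sample is not given here, and both samples went through the same sort and labelling, from 250 ng of total RNA. There was 1 array per genotype, an Affymetrix Mouse Gene 1.0 ST, so every difference below is a single value per gene, without replicates and untested.

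The array values, deposited as linear intensities, had similar medians, 182.9 (wild-type) and 181.7 (Runx2-deficient). The deleted gene, Runx2, was not analysed here, so it did not check the labels. The pDC genes Siglech, Tcf4 and Irf8 were bright on both arrays, and the pDC list had a median difference of -0.11 on the log2 scale over 19 genes, with 6 of them lower and 1 higher by at least 0.32 log2 units. Genes of other cell types also differed. On the Runx2-deficient array 16 of 18 granulocyte genes lay lower by at least 0.32 log2 units, as did 9 of 12 erythroid, 7 of 7 platelet and 11 of 22 proliferation genes. The summed intensity of the granulocyte list was 19169 on the wild-type array and 3264 on the Runx2-deficient one. That of the erythroid list was 8090 on the wild-type array and 6442 on the Runx2-deficient one. The erythroid sum includes Tfrc, the brightest gene of that list and the 1 above 0. Tfrc was at 11.80 log2 units on the wild-type array and 12.24 on the Runx2-deficient one, so the sum understates the fall of the other erythroid genes. The Y-linked genes Eif2s3y, Uty and Kdm5d were lower in the Runx2-deficient sample by 4.44, 2.94 and 2.27 log2 units. The part of these in the results on ribosomal protein genes was not tested. In sorted bulk cells, fewer cells of a type and less RNA per cell cannot be told apart.

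A cytosolic ribosome is made of a small (40S) subunit, which reads the messenger, and a large (60S) subunit, which joins the amino acids. Each holds ribosomal RNA and a fixed set of proteins, most of them needed in equal numbers, so their genes are usually transcribed and translated together. Most of their messengers start with a short pyrimidine tract, the TOP motif, through which mTOR and the protein LARP1 control translation. pDCs carry a large secretory apparatus, which depends on protein synthesis. Of 79 proteins of the mouse cytosolic ribosome listed, 54 were measured here, 33 of the large and 21 of the small subunit. The other 7 members were copies or relatives of these genes: Rpl3l, Rpl7l1, Rpl10l, Rpl32l, Rpl39l, Rps4l and Rps27l. A further 16 of the 79 were found only on probe sets that list other symbols as well, and no value was assigned to these. The rest of the 79 were not analysed here. RefSeq symbols matched for 61 of 61 members by gene identifier, and 1 of them, Rps4l, is annotated as a transcribed pseudogene.

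Promoter windows from RefSeq (GRCm38.p6), running from 250 bases before to 50 bases after the annotated start, were found for 49 members. A gene with several windows was counted where any of them held the word. A run of at least 8 pyrimidines (C or T) on the gene's own strand, between 20 bases before and 50 after the start, was found at 35 of 49 members (71.4%). Over 17491 protein-coding genes with a window the share was 28.5%. A C followed by 4 or more pyrimidines, beginning within 5 bases of the start, was in 18 of 49 (36.7%) against 21.5%. The word CCGGAAG, on either strand, is recognised by ETS factors such as GABP and was found at 19 of 49 members (38.8%) against 12.9%. The words read by Runx factors were not more frequent than elsewhere: TGTGGT, on either strand, was found at 5 of 49 members (10.2%) against 17.2%, and TGCGGT at 3 of 49 (6.12%) against 8.51%. The E-box CACGTG, which reads the same on both strands, was found at 5 of 49 (10.2%) against 8.91%, and TATAAA, on the gene's own strand, at 5 of 49 (10.2%) against 9.82%. CCGGAAG, read from the opposite strand, can share letters with a pyrimidine run. A match is a word in a window, not a bound site.

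The windows, chosen after their values were known, show these words at genes whose array values stood at either end of the range. Capitals mark pyrimidine runs of 8 or more and the words CCGGAAG and TGCGGT on either strand. Each window holds 90 bases before and 20 after the start used by the RefSeq promoter table. For Rpl5 the gene model begins 20 bases upstream of that start, and for the other 4 the starts coincide. Rpl5 (chr5:107900438-107900547, plus strand), Rps28 (chr17:33824543-33824652, minus strand) and Rpsa (chr9:120127676-120127785, plus strand) were higher in the Runx2-deficient sample. Rplp2 (chr7:141447561-141447670, plus strand) and Rpl41 (chr10:128549149-128549258, minus strand) were lower.
Rpl5: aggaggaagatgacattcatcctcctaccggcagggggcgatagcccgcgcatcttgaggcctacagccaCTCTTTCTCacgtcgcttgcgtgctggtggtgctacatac
Rps28: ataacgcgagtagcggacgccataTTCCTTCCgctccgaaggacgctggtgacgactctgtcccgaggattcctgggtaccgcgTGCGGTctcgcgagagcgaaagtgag
Rpsa: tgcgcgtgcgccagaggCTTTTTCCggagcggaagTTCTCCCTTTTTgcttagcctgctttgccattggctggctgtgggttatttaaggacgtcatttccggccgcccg
Rplp2: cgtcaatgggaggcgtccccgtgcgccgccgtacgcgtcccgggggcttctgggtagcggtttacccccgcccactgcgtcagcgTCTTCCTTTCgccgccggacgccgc
Rpl41: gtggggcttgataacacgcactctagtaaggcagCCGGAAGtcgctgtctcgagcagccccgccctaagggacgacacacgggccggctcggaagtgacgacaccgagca

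Rps28 holds TGCGGT beginning 6 bases before the start, and a pyrimidine run further upstream. A pyrimidine run spans the start of Rplp2. That of Rpl5 begins 20 bases before the start of the promoter table, which is where its gene model begins. Of 9 such windows cut for the 4 lowest and 5 highest members eligible, 5 held no run of 8. These were Rpl12, Rpl41, Rps19, Rpl37a and Rpl24, and all but Rpl41 are not shown. The member counts and the medians below used a different stretch around the start, and any window of a gene. There Rpl12, Rpl41, Rps19 and Rpl37a counted as members with a run, and Rpl24, Rpsa and Rps28 as members without. The median difference between the arrays was 0.14 over the 35 members with a run of 8 and 0.09 over the 14 without. It was 0.15 over the 19 members with CCGGAAG and 0.12 over the 30 without. For TGTGGT it was 0.17 over the 5 members with the word (Rps2, Rpl6, Rps12, Rps3a1 and Rps25) and 0.13 over the 44 without. For TGCGGT it was 0.21 over 3 and 0.13 over 46 members, and for CACGTG 0.14 over 5 and 0.13 over 44. Members with a C and 4 pyrimidines at the start were nearly equal to the rest, at 0.12 (18 members) and 0.13 (31 members). Those with TATAAA went the other way, at -0.02 (5 members), against 0.13 (44 members). Except for TGCGGT and TATAAA, each gap was smaller than 0.05, the median SD of the difference within a gene (described below). These medians are descriptions of the same pair of arrays.

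Ribosomal protein genes were, as a group, slightly higher in the Runx2-deficient sample, and the small subunit more so than the large. The median difference (log2 intensity, Runx2-deficient minus wild-type) was 0.14 over the 61 members, with quartiles of 0.01 and 0.26. The lowest was -0.29 and the highest 0.61. Of the 61, 46 (75.4%) were above 0, where 42.6% of all 19938 named genes were. A background of bright genes is the 6694 other named genes at least as bright as the 10th percentile of the members, 8.53 log2 units. Of these 51.6% were above 0, and their median difference was 0.01, with quartiles of -0.18 and 0.18. The summed intensity of the members was 1.10-fold higher on the Runx2-deficient array, and their share of the intensity of all named genes was 2.43%, against 2.17% on the wild-type array.

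Counts of differing genes use a threshold of 0.32 log2 units (0.3219 before rounding), a ratio of 5 to 4. No member differed by 2-fold, 13 of 61 (21.3%) passed the threshold upward on the Runx2-deficient array, and 0 downward. Among all named genes 6.48% passed it upward and 9.47% downward, and among the bright ones 11.2% and 13.8%. At 2-fold the shares were 0.436% higher and 0.647% lower over all named genes, and 0.747% and 0.986% over bright ones. The members thus lay closer together than other bright genes, with an SD of 0.21 against 0.37. This was not particular to them. The SD was 0.21 for mitochondrial ribosomal protein genes, 0.23 for ribosome assembly factors and 0.18 for RNA polymerase I and III genes. It was 0.25 for initiation factors and 0.32 for other TOP messengers. Other named genes at or above 13 log2 units had an SD of 0.18. The members also lay mostly on 1 side of 0.

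The small subunit genes had a median difference of 0.21 (quartiles 0.10 and 0.34, 23 genes) and the large subunit genes 0.11 (quartiles -0.05 and 0.22, 38 genes). Above 0 were 20 of 23 small and 26 of 38 large subunit genes. Past the threshold upward were 8 of 23 (34.8%) small and 5 of 38 (13.2%) large subunit genes. The share was 11.2% among bright named genes, near that of the large subunit, and 6.48% among all named genes. The bright genes were dimmer, at a median wild-type level of 9.71 log2 units, against 11.37 (small subunit) and 11.70 (large subunit). The medians were 0.11 apart, about as large as the distance of either quartile from its median, so the subunits overlapped widely: 11 of 38 large subunit genes lay above the small subunit median. Without the 7 copies the medians were 0.22 (21 genes) and 0.11 (33 genes). Genes are not replicates, so no test of the subunit difference was made. With the 10 brightest members left out, at or above 13 log2 units, the medians were 0.08 apart.

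**Figure D1:**
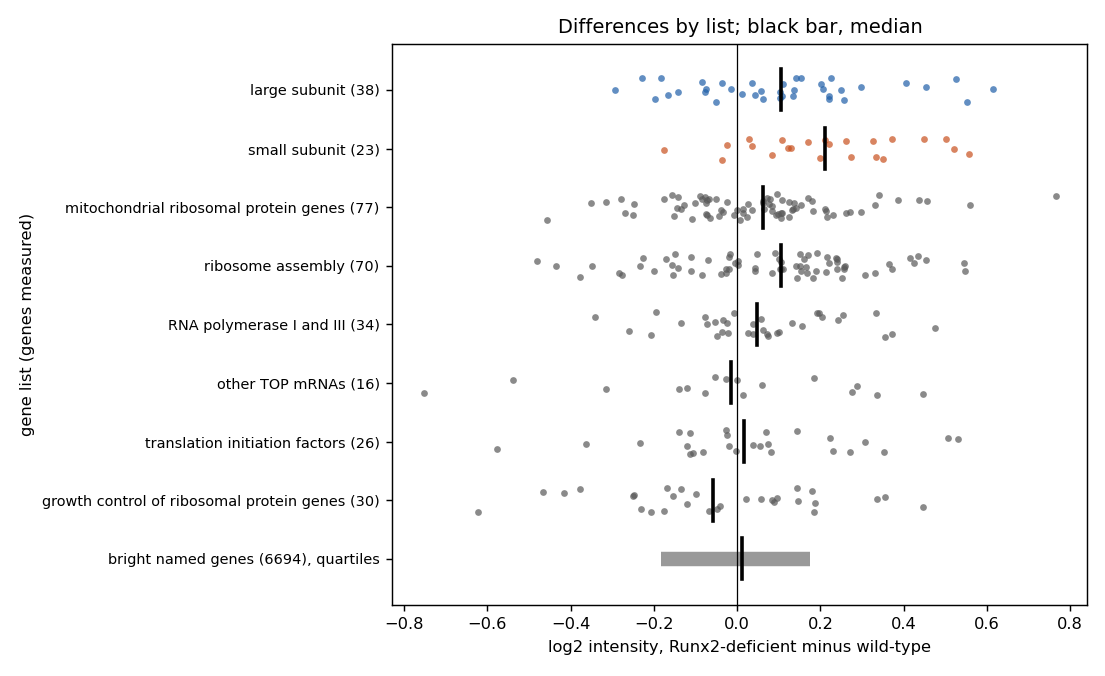
Differences in log2 intensity (x axis, Runx2-deficient minus wild-type) by gene list (y axis, genes measured in brackets); each point is 1 gene, black bars are medians and the grey bar spans the quartiles of bright named genes. The small subunit median, 0.21, lies to the right of the large subunit median, 0.11. Both lists overlap the other lists, each of which reaches further below 0.

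Several small subunit proteins of the head, the part that swivels during translocation, were among the most different genes. Rps29 gave an intensity of 1493 on the wild-type array and of 2195 on the Runx2-deficient array, 1.47-fold higher. Rps28, which lies near the messenger exit, was at 3810 and 5465, 1.43-fold higher. Rps12 was at 1869 and 2420, 1.29-fold higher, and Rps18, which contacts the large subunit, at 4057 and 5170, 1.27-fold higher. Of 10 measured head genes 9 were above 0, with a median of 0.27. The exception was Rps19, the gene first linked to Diamond-Blackfan anemia, a failure of red cell production. It was at 911 units on the wild-type array and 806 on the Runx2-deficient one (-0.18), on a probe set annotated with 1 accession. The 3 probe sets that list Rps19 beside another symbol differed by 0.30 to 0.44, so its direction rests on that 1 probe set.

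The genes of the 40S body and platform gave a similar picture, with 10 of 11 above 0 and a median of 0.21. Rpsa, also known as the laminin receptor precursor, was at 2201 units on the wild-type array and 3118 on the Runx2-deficient one, 1.42-fold higher. Rps9 was at 2654 and 3623 (1.36-fold), Rps14 at 3932 and 4957 (1.26-fold), and Rps21 at 601 and 753 (0.33 log2 units). Rps6, the substrate of S6 kinase, was nearly equal on both arrays, at 12489 and 12794 units (0.03). So was Rps13 (0.03), and Rps2 was the 1 body gene below 0 (-0.02). In the head, Rps10 and Rps20 differed by 0.26 and 0.27 and Rpl8 and Rpl22 of the large subunit by 0.30 and 0.26, just under the threshold.

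In the large subunit, 5 of 38 genes (13.2%) passed the threshold upward, a share near the 11.2% of bright named genes. That background was dimmer than the large subunit at the median, and counts by brightness class are given below. Rpl5 carries the 5S ribosomal RNA and, when ribosome assembly stalls, binds MDM2 and stabilises p53. It had the highest difference of all members, at 3425 units on the wild-type array and 5243 on the Runx2-deficient one (1.53-fold). That value comes from the brightest of its 5 probe sets, and the others differed by 0.30 to 0.32, just short of the threshold. The mean of its probe sets was 0.37. Its partner Rpl11 was not assigned. Rpl24, which forms a bridge to the small subunit, was at 1450 and 2129 (1.47-fold), and Rpl37a at 3506 and 5050 (1.44-fold). Rpl36a was at 3603 and 4934 (1.37-fold), and Rpl14 at 231 and 307 (1.33-fold) on a dim probe set with 1 accession.

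Of the structural groups listed, only the stalk of the large subunit, which recruits and activates the translation factors, had no member above 0. It has 4 measured genes, and 42.6% of all named genes were above 0. Rplp0, its anchor, was at 8977 units on the wild-type array and 8660 on the Runx2-deficient one (-0.05). Rplp1 was at 10313 and 10205 (-0.02) on its brightest probe set and differed by 0.20 on the other. Rplp2 was at 494 and 440 (-0.17), on 1 probe set with 1 accession. Rpl12, at the stalk base, was at 282 and 230 (-0.29), the lowest of all members, on a dim probe set with 1 accession. With probe sets of several symbols included its value was -0.11, and Rpl39l was then the lowest of the 61. The 8 probe sets that list Rpl12 beside another symbol ran from -0.17 to 0.03. These differences were small, and none reached the threshold. Rplp1 turned positive (0.02) when the trend of the difference with intensity was removed, and 0.09 as the mean of its probe sets, while Rplp0, Rplp2 and Rpl12 stayed below 0 in each of the 6 alternatives run on single genes.

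Apart from the stalk and the copies, the large subunit genes below 0 were Rpl41, Rpl26, Rpl7a and Rpl23. Rpl41, the smallest ribosomal protein, was at 9108 units on the wild-type array and 7947 on the Runx2-deficient one (-0.20), with 3 probe sets of identical values. Rpl26, at the rim of the tunnel through which the new chain leaves, was at 2411 and 2185 (-0.14), while 3 probe sets that list it beside another symbol differed by 0.10 to 0.18. The other measured tunnel and rim genes were above 0: Rpl23a at 0.10, Rpl19 at 0.14 and Rpl4 at 0.14.

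**Figure D2:**
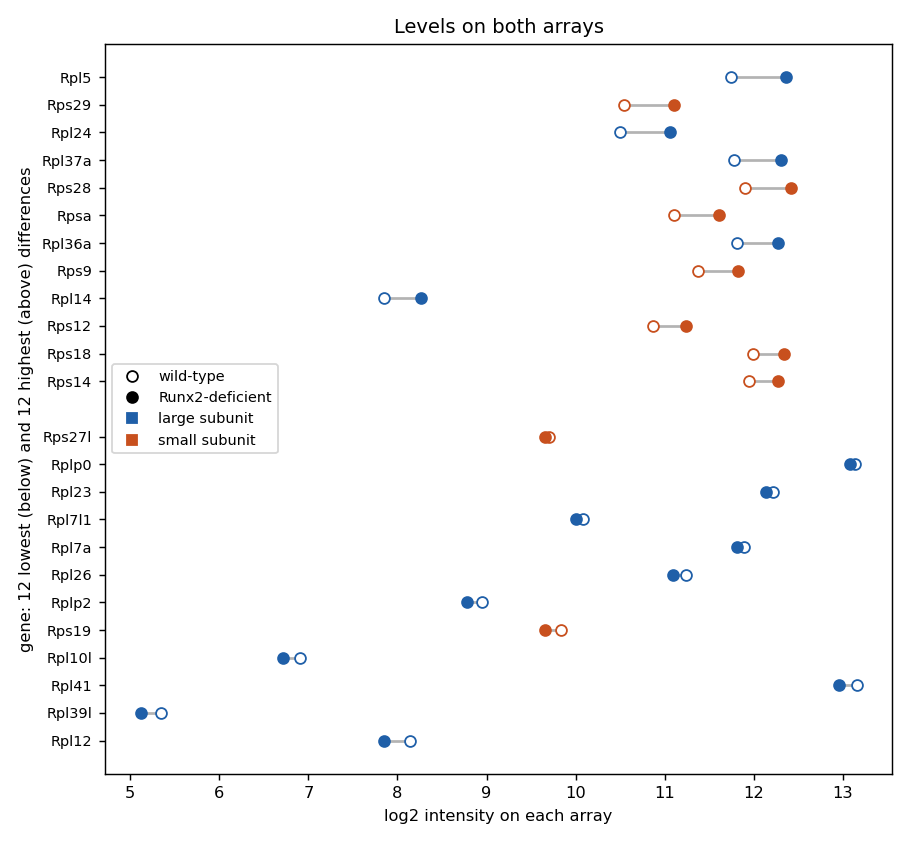
Log2 intensity (x axis) in the wild-type (open) and Runx2-deficient (filled) sample for the 12 members with the highest and the 12 with the lowest difference (y axis), coloured by subunit. The upper 12 are separated by 0.33 to 0.61, the lower 12 by at most 0.29.

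The copies of ribosomal protein genes were mostly below 0. Of the 7, 2 were above 0, and their median was -0.04. This was not particular to them. Over all named genes 42.6% were above 0, with a median of -0.03. Among other named genes below 9 log2 units, 5691 of 14611 were, with a median of -0.05. The germline copies Rpl10l and Rpl39l were below the median of named genes on both arrays, as was Rps4l, so 58 of 61 members passed that brightness filter. Rpl10l was at 120 units on the wild-type array and 105 on the Runx2-deficient one (-0.18), while its X-linked parent Rpl10 was at 12843 and 13364 (0.06). Rpl39l was at 41 and 35 (-0.23). Rps27l, a p53 target in many cells, was at 831 and 810 (-0.04), and Rpl7l1 at 1083 and 1026 (-0.08). Rpl3l, a muscle gene, was at 197 and 230 (0.22), at levels close to the filter.

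Of the members, 3 are on the X chromosome: Rpl10 (0.06), Rps4x (0.12) and Rpl36a (0.45). They are given apart because the arrays differed in Y-linked genes. Xist, the RNA of the inactive X, was at 13.06 on the wild-type array and 13.46 on the Runx2-deficient one, in log2 units. The median of the other 58 members was 0.14. Among the 9 measured genes in which human mutations cause Diamond-Blackfan anemia, the differences ran from -0.18 (Rps19) to 0.61 (Rpl5), with 7 above 0. Past the threshold upward were 3 (33.3%): Rps28, Rps29 and Rpl5, the last on 1 of its 5 probe sets. The upward share was 21.3% over all members, 11.2% over bright named genes and 6.48% over all named genes.

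The array carries many probe sets for single ribosomal protein genes, and they give a rough technical yardstick. The 61 members had 217 probe sets with their symbol alone, and 39 members had several, up to 14. They read the same RNA on the same array, and 15 repeated the values of another probe set of the gene on both arrays, so they are not replicates. In the 30 members with at least 3 distinct probe sets, the median SD of the difference within a gene was 0.05, against 0.19 between those genes. Differences were thus more alike within a gene than between genes. Some probe sets at different levels also had the same difference, such as 0.5452 in Rps29 and 0.5360 in Rpl24. Whether such probe sets share probes was not examined, so the SD within a gene may be too small. All probe sets lay on 1 side of 0 in 31 of 39 members and on both in 8.

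Some genes, picked here after their values were seen, were well above 0 on every probe set, though not always past the threshold. Rps28 differed by 0.49 to 0.63 on 7 probe sets (6 with distinct values). Rps29 differed by 0.55 to 0.56 on 4, Rpl24 by 0.54 to 0.55 on 3 and Rpl36a by 0.44 to 0.45 on 2. Rps12 differed by 0.31 to 0.45 on 14 (8 with distinct values) and Rps18 by 0.28 to 0.41 on 7. At the other end, Rpl10 ran from -0.04 to 0.09 on 6 probe sets (5 with distinct values). Rpl28 ran from -0.01 to 0.05 on 5, Rpl21 from -0.02 to 0.11 on 9 and Rps6 from 0.03 to 0.13 on 8. Of the 11 members past the threshold with several probe sets, 8 passed on all of them; the exceptions were Rpl5 (1 of 5), Rps12 (13 of 14) and Rps18 (6 of 7).

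Probe sets disagreed in a few genes. Rps14 differed by 0.33 on its brighter and 0.64 on its dimmer probe set, and Rps21 by 0.33 and 0.56. Rpsa differed by 0.50 on the brightest and 0.32 to 0.33 on the other 4. Rps2 ran from -0.36 to 0.04 on 3 probe sets, and Rpl13 from 0.03 to 0.34 on 9. Messengers of ribosomal proteins have many near-identical pseudogenes, and the annotation does not say which locus a probe set reads, so single values carry this uncertainty.

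**Figure D3:**
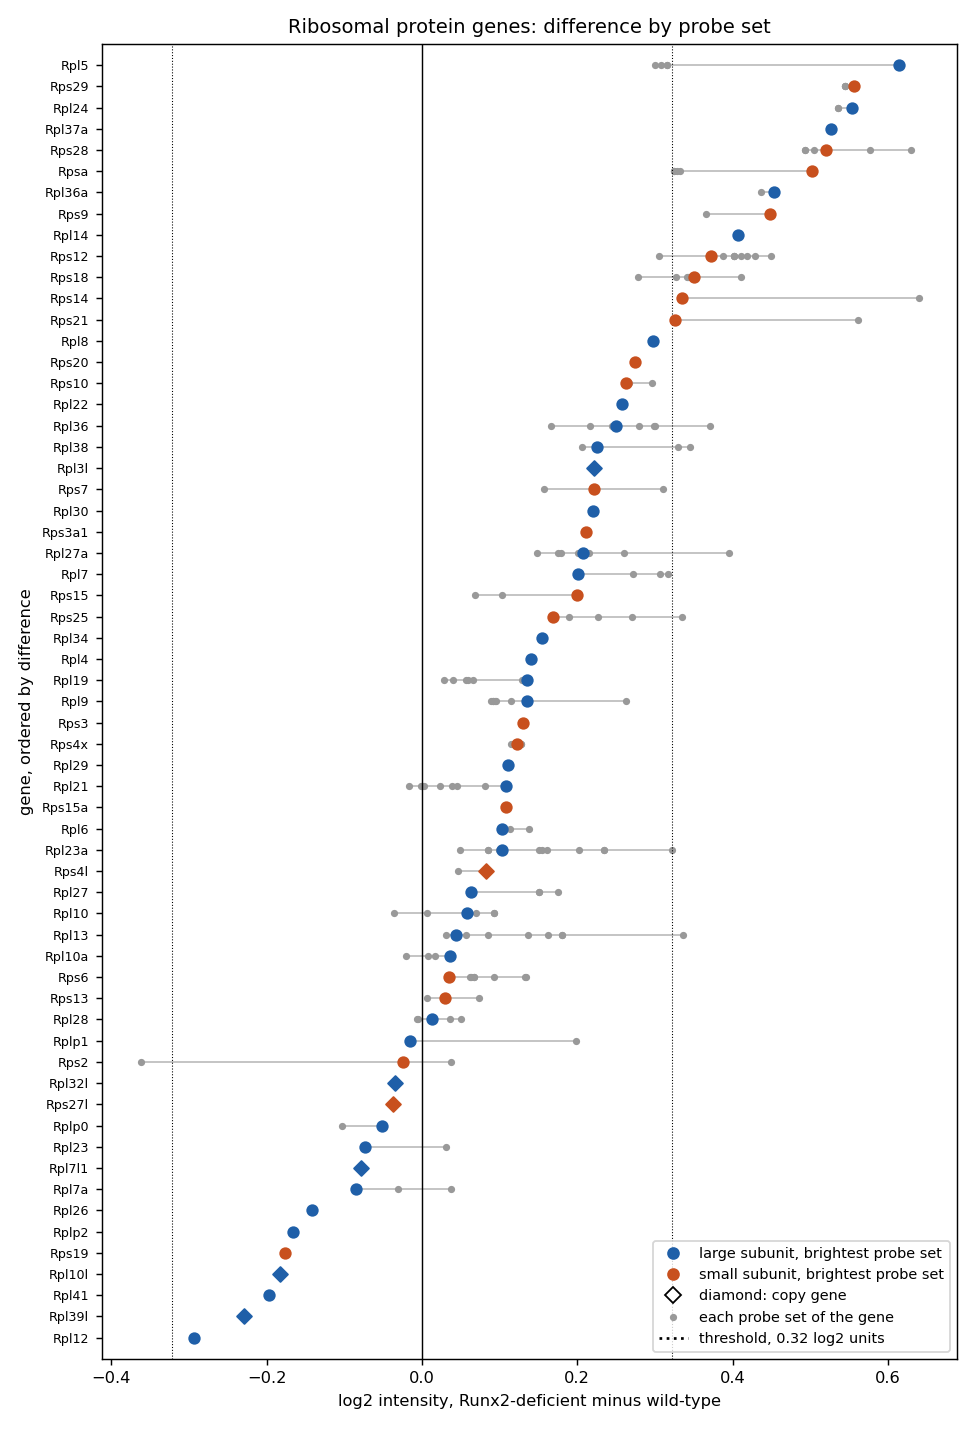
Difference in log2 intensity (x axis, Runx2-deficient minus wild-type) for the 61 genes (y axis), with the brightest probe set coloured by subunit and each probe set of the gene in grey; diamonds are copies and dotted lines mark the threshold of 0.32. The 13 genes right of the dotted line are 8 of the small and 5 of the large subunit, and no brightest probe set lies left of the other line.

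The difference did not follow brightness in a simple way. Over the 61 members the Pearson correlation of difference and mean log2 intensity was 0.21, and over the 54 without the copies it was -0.02; these genes share both arrays. The 10 members at or above 13 log2 units had a median of 0.05 and a range from -0.20 to 0.27, with 0 past the threshold. Between 12 and 13 units the median of 14 members was 0.18, and between 11 and 12 that of 16 members was also 0.18. Other named genes in these classes had medians of -0.03 (44 genes), -0.05 (209 genes) and 0.01 (696 genes). Past the threshold upward were 6 of 14 members between 12 and 13 units and 3 of 16 between 11 and 12. Of other named genes 10 of 209 and 59 of 696 passed it there, and 1 of 44 at or above 13. Between 9 and 11 units the 12 members had a median of 0.13 and the other 4317 genes 0.02. Below 9 units the medians were -0.04 (9 members) and -0.05 (14611 genes), the smallest gap of the 5 classes.

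**Figure D4:**
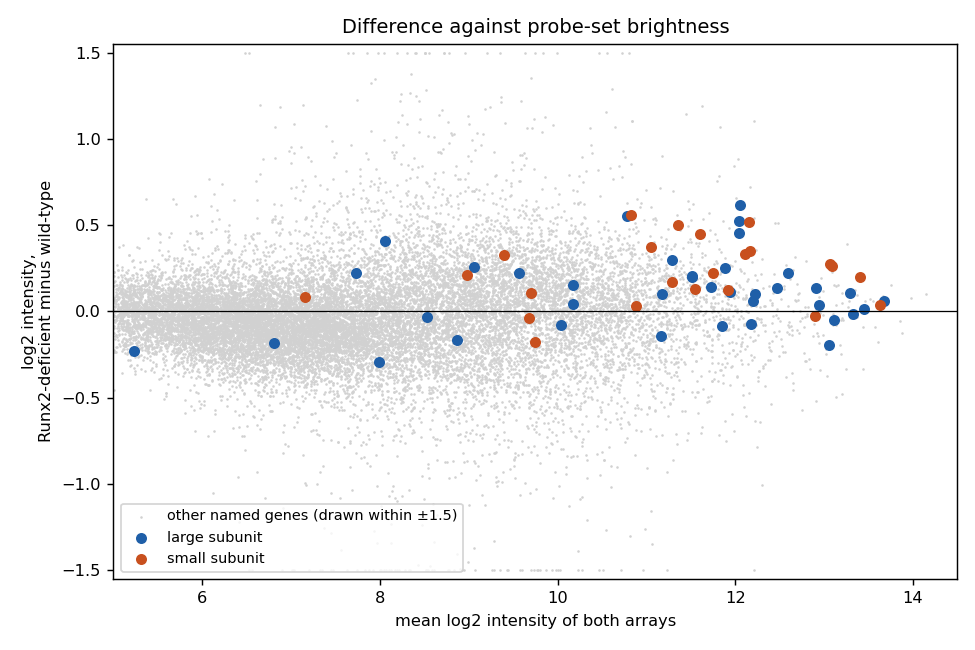
Difference in log2 intensity (y axis) against mean log2 intensity of both arrays (x axis) for members, coloured by subunit, and other named genes (grey, with differences beyond 1.5 drawn at that limit and genes below 5 units not shown). Most members between 11 and 13 units lie above 0, and those above 13 lie nearer to it.

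Genes that work with the cytosolic ribosome were compared with the members. Of bright named genes 51.6% were above 0, 11.2% passed the threshold upward and 13.8% downward. Over all named genes the shares were 42.6%, 6.48% and 9.47%. In the lists from here to the regulators, upward shares ran from 9.09% (mitochondrial ribosome) to 12.9% (ribosome assembly), near the share of bright genes. The mitochondrial ribosome, a separate machine that translates the mitochondrial genome, had 45 of 77 genes above 0 and a median of 0.06, with 7 past the threshold upward and 2 downward. Its most different genes were Mrps18c (0.77), Mrpl50 (0.56) and Mrpl24 (0.46), and at the other end Mrps30 (-0.46), Mrps23 (-0.35) and Mrpl38 (-0.32, just short of the threshold). Its small and large subunit medians were 0.08 and 0.02.

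The factors that assemble ribosomes in the nucleolus had a median of 0.10, with 45 of 70 above 0, 9 past the threshold upward and 4 downward. Dkc1, which modifies ribosomal RNA, differed by 0.55, Rsl1d1 by 0.55 and Brix1, of large subunit assembly, by 0.45. Nop2, an RNA methyltransferase, differed by -0.48, Rrp9 by -0.43 and Gnl3l by -0.38. The RNA polymerase I and III list, which makes ribosomal and transfer RNA, had a median of 0.05 with 20 of 34 above 0. Polr2k differed by 0.47, Taf1b by 0.37 and Bdp1 by 0.35, and Polr3d by -0.34, Taf1c by -0.26 and Ubtf by -0.21.

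Other messengers known to carry the TOP motif were split evenly. Of 16 measured, 8 were above 0 and 8 below, with a median of -0.01. The elongation factor gene Eef1b2 differed by 0.45, Naca by 0.34 and Npm1 by 0.29. Eif3f, an initiation factor subunit, differed by -0.75, Vim by -0.54 and Pabpc1 by -0.32, just short of the threshold; 2 genes passed it in each direction. Translation initiation factors outside that list had a median of 0.02, with 13 of 26 above 0. Eif4a2 differed by 0.53, Eif2b1 by 0.51 and Eif3i by 0.35, and Eif5a by -0.58, Eif3b by -0.36 and Eif4h by -0.23.

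The regulators of ribosomal protein genes, from MYC to the mTOR pathway, had a median of -0.06, with 13 of 30 above 0. Past the threshold were 3 upward (10%) and 4 downward (13.3%), near the shares of bright named genes (11.2% and 13.8%). Myc, which drives ribosome production in growing cells, was at 6.86 log2 units on the wild-type array and 6.39 on the Runx2-deficient one, below the median of named genes on both arrays (7.61 and 7.54). Zbtb7a differed by -0.62 and Akt1 by -0.42. Mxd4, an antagonist of MYC, differed by 0.45, Larp4 by 0.35 and Gabpb1, a partner of the ETS factor GABPA, by 0.34.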

How the data were processed

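Expression was measured in 2 sorted pDC samples, 1 Runx2-deficient and 1 wild-type, grouped by their genotype labels. Per the labels' protocols RNA was labelled with the Ambion WT kit, and RMA is the tool named in the submitters' processing notes; it corrects background, normalises arrays and summarises probes. Deposited intensities were linear (15.3 to 20364); for the software version and the set of arrays normalised together, nothing is given in the sources used here. The number of arrays limits the precision, and RMA compresses differences of dim probe sets.

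Of 35556 probe sets, 21789 have 1 symbol, 1621 have several and 12146 have none. Values were taken to log2 and subtracted, with no test. Counts use 0.32 log2 units and 2-fold. Members and lists were chosen with earlier results of these data known. Named were any members and the 3 genes furthest from 0 in each direction of a list; other marker and sex-linked genes were chosen as checks. The scripts recovered planted differences in simulated data with little noise, which checks the code and not the error of these arrays. Alternatives were centring, a loess trend (span 0.3), probe-set means or medians, a filter, 1.5-fold and changed member lists. A planned protein comparison was not run. Tools were pandas 2.3.3 and numpy 2.4.6 under Python 3.11.15, with statsmodels 0.14.6 for loess and matplotlib 3.10.9 for plots.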

Additional observations from a re-analysis of the deposited data

Results flagged for a closer look

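Probe sets that list a ribosomal protein symbol beside another symbol were outside the comparison, and they too were mostly higher in the Runx2-deficient sample. Their median difference was 0.0804 over 239 probe sets, at median log2 levels of 12.51 on the wild-type array and 12.66 on the Runx2-deficient one. Of the 239, 187 were above 0, 28 past the threshold upward and 1 downward. Among bright named genes 51.6% were above 0, 11.2% passed the threshold upward and 13.8% downward. Over all named genes the shares were 42.6%, 6.48% and 9.47%. The upward count was thus near the share of bright genes. Rpl29 was listed on 35 of these probe sets and Rpl21 on 32, so they are not separate observations of genes. In a few genes they went against the value given for the symbol alone. The 3 probe sets that list Rps19 beside another symbol differed by 0.30 to 0.44, where the Rps19 probe set differed by -0.18. The 3 that list Rpl26 beside another symbol differed by 0.10 to 0.18, against -0.14. The 1 that lists Rps13 beside another symbol differed by -0.32, against 0.03.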

How the results depend on the processing

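Under the 11 alternatives that give a median, that of the members ran from 0.12 to 0.15 and the small minus large subunit median from 0.08 to 0.11. Values were taken as stable where they moved by less than the median SD within a gene (0.05). With 1.5-fold as the threshold, 1 member was higher, Rpl5, which is 1 of the large and 0 of the small subunit, and 0 were lower. The other TOP messengers had a median of 0.0035 with the loess trend removed. The median of the escort and quality control genes was 0.0576 with the loess trend removed, 0.0456 with probe-set means and 0.0863 past the filter, against -0.0197; the cause was not tested. Rps21 dropped below the threshold with the loess trend removed or with arrays centred on bright genes, and Rpl5 with the median of its probe sets. Adding probe sets of several symbols gave 78 genes, 17 of them higher. The loess trend moved 2 members, Rplp1 and Rps2, across 0. A version with 2 further named proteins added as members was not run. The versions with probe-set medians, without the brightest and without X-linked members were chosen after seeing the data. No paired analysis was possible because each group has 1 array and the labels carry no replicate numbers.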

Other observations

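Genes of the response to faulty ribosomes and of ribosomal protein handling were listed apart from the main comparison. The p53 pathway list had a median difference of 0.11, with 9 of 12 genes above 0, 0 higher and 1 lower by the threshold. Mdm4 and Mdm2, inhibitors of p53, differed by 0.29 and 0.16, Phlda3 by 0.26, and Sesn2, a stress sensor upstream of mTOR, by -0.46. Zmat3 and Cdkn2a, both below the median of named genes on both arrays, differed by -0.19 and -0.12. Of 17 genes that escort new ribosomal proteins or clear stalled ribosomes, 8 were above 0, with a median of -0.0197. Nemf and Ltn1, of the complex that tags chains on stalled large subunits, differed by 0.47 and 0.25. Pdcd2, an escort of Rps2, differed by 0.26, Zfp598, a sensor of collided ribosomes, by -0.26, Aamp by -0.19 and Heatr3 by -0.18.

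Marker lists of other blood cells held genes that differed in both directions, so their medians say little alone. Over all named genes 6.48% passed the threshold upward and 9.47% downward. Past the threshold were 4 T cell genes upward and 2 downward of 12 (median 0.14), and 4 B cell genes upward and 5 downward of 13 (median -0.18). Of 11 monocyte and macrophage genes 3 passed it upward and 5 downward (median -0.18), and of 11 conventional dendritic cell genes 1 and 3 (median -0.04). Of 10 progenitor genes 2 and 3 did (median -0.01), of 10 NK cell genes 3 and 1 (median 0.09), and of 7 plasma cell genes 1 and 0 (median 0.10). Single genes, named after their values were seen, reached 2.25 (Bank1) and -1.51 (Blk) in the B cell list. In the monocyte list they reached 0.89 (C1qb) and -2.23 (Ccr2), and in the conventional dendritic cell list 1.35 (Ccr7) and -2.43 (Itgax).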
